A study of Canis lupus familiaris with 23 samples.

Results

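The pre-mRNA splicing factors described here are the genes on a canine expression array whose symbol begins with SRSF, HNRNP, SNRP, SF3A, SF3B, PRPF, U2AF, or with LSM, RBM or DHX followed by a digit. The rule used symbols only and no measured value. It found 82 genes among 6540 genes named by 1 symbol, each read from the probe set that was brightest on average over all 23 samples. They comprised 19 RBM proteins, 15 hnRNP proteins, 11 SR proteins (symbol SRSF), 9 LSM proteins, 8 Sm and snRNP proteins (symbol SNRP), 7 DHX helicases, 6 PRPF proteins, 5 SF3A and SF3B subunits and 2 U2AF proteins. The study profiled 2 canine osteosarcoma cell lines, named MC-KOSA and BW-KOSA in its methods, and 15 primary osteosarcomas removed from dogs at definitive surgery before any chemotherapy. It also profiled normal lymph node, kidney and liver from research colony dogs, with 2 samples of each organ. Neither a genotype, an age nor a treatment was given for the normal dogs in the sources used here, and no normal bone was among the samples. Expression is given throughout as the log2 value of robust multi-array averaging (RMA), so that a difference of 1 stands for a doubling. RMA values do not set 1 probe set's level against another's, and no order of levels between genes is given.

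Splicing removes introns from the primary transcript on the spliceosome, which is built from small nuclear ribonucleoproteins (snRNPs). Sm proteins form a ring on most spliceosomal small nuclear RNAs, and LSM proteins form the corresponding ring on U6. The U2AF proteins mark the 3′ splice site, the SF3A and SF3B subunits belong to the U2 snRNP that binds the branch point, and PRPF proteins act mostly in the tri-snRNP and the catalytic core. DHX proteins are RNA helicases, several of which drive the remodelling steps and the release of the lariat. SR proteins bind exons and mostly promote their inclusion, while hnRNP proteins coat the transcript and often oppose them, so that the balance between both sets the choice of exons. RBM is a mixed class named only for an RNA recognition motif. A rule on symbols also takes in genes with other main roles. RBM28 is a nucleolar protein whose yeast counterpart, Nop4, acts in ribosome assembly, LSM1 belongs to the cytoplasmic complex of mRNA decay, DHX29 acts in translation initiation and DHX34 in nonsense-mediated decay.

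Array medians lay between 4.73 and 4.94 over the 23 samples. On 10 arrays the actin and GAPDH control probe sets gave much less signal at the 5′ than at the 3′ end of the transcript. A 5′ index was taken as the mean log2 difference of 3′ over 5′ control signal, and it was 3.15 to 6.45 on those arrays, against -0.32 to 0.85 on the other 13. Low 5′ signal was found for 7 tumors and for replicate 1 of each organ, and both cell lines had full 5′ signal. Defining markers followed the labels: ALB was 13.22 in both livers and at most 4.12 elsewhere, CDH16 was 9.13 and 9.64 in kidney and at most 5.52 elsewhere, CD3E was 8.09 and 9.79 in lymph node and at most 7.33 elsewhere. UMOD, a marker of kidney tubules, was 6.41 and 6.42 in kidney, against up to 6.40 in tumors, and did not separate it. COL1A1, the collagen of bone matrix, was 12.39 and 13.18 in cell lines and 9.58 to 13.94 in tumors, against at most 6.64 in the organs. Tumor 5 stood apart in a list of 9 skeletal muscle genes, with a mean of 8.65 against a mean of 5.42 over all tumors.

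Over the 5 groups, splicing factors were mostly highest in cell lines or lymph node and lowest in liver or kidney. The group mean was highest in cell lines for 39 of the 82 genes and in lymph node for 36, which together made 75 of 82, whereas 56.6% of all genes with 1 symbol were highest in these 2 groups. It was lowest in liver for 46 and in kidney for 25, together 71 of 82, against 47.2% of all genes. Tumors held the highest mean for 1 gene, PRPF40B, and the lowest for 2, where 11.1% and 10.6% of genes with 1 symbol were highest and lowest in tumors. For 39 genes the tumor mean lay above both kidney and liver and below both cell lines and lymph node. The share of all genes with this order was not counted, so that it is not read as a trait of splicing factors. The mean deviation of the 82 genes from their own means over 23 samples was 0.44 and 0.38 in cell lines, 0.40 and 0.52 in lymph nodes, -0.36 and -0.21 in kidneys and -0.42 and -0.53 in livers. Among tumors it ran from -0.37 in tumor 14 to 0.26 in tumor 12. On the same scale a list of 11 cell cycle genes was at -1.08 in tumor 14 and at 0.77 in tumor 12, and its part was not tested. In the heat map of all 82 genes this appeared as warm columns for cell lines and lymph nodes, cool columns for kidneys and livers, and mixed columns for tumors.

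**Figure D1:**
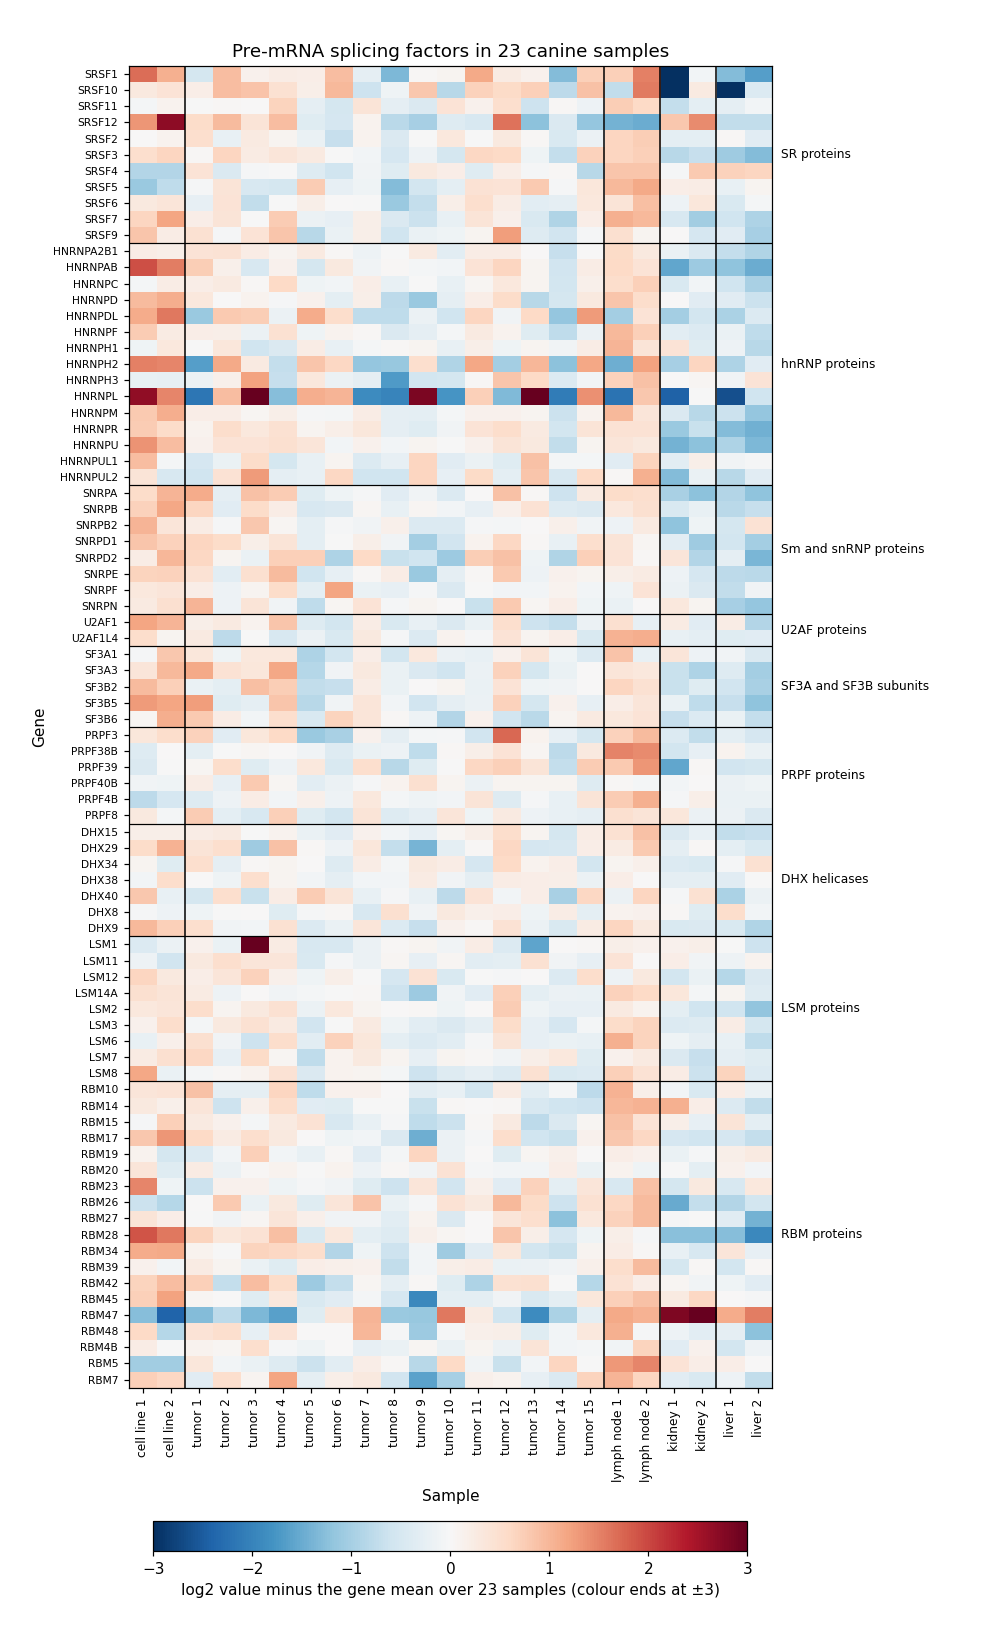
Each row is 1 of 82 splicing factors, grouped by family, and each column is 1 of 23 samples. Colour shows the log2 value after subtraction of the row mean, and ends at 3 on either side. Lymph node columns are warm for most genes, kidney and liver columns are cool, and the HNRNPL and HNRNPH2 rows instead follow the arrays with low 5′ signal.

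The families differed in where their members peaked. All 8 Sm and snRNP genes and all 5 SF3A and SF3B genes were highest in cell lines, while 8 of 11 SR genes, 10 of 19 RBM genes and 5 of 6 PRPF genes were highest in lymph node. Of all genes with 1 symbol 35.3% were highest in cell lines and 21.3% in lymph node. The hnRNP genes were divided, with 9 of 15 highest in cell lines and 6 in lymph node. HNRNPL, HNRNPH2 and HNRNPDL, among those highest in cell lines, were lower in tumors with low 5′ signal, and both cell lines had full 5′ signal. These are counts of group means, and the tests of single genes follow below. Group means spanned a median range of 1.37 over the 82 genes, against 1.22 over all genes with 1 symbol and 0.71 over all probe sets. The 82 chosen probe sets were brighter, with a median level of 8.08, against 6.44 over genes with 1 symbol and 4.92 over all probe sets. Shares and medians over all genes, here and elsewhere, were not matched for this level.

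Within families, the range of the 5 group means set wide members apart from even ones. SRSF12, an SR-related protein that can antagonize SR proteins, spanned 3.47 and SRSF6 spanned 0.89. HNRNPL, which binds CA-rich elements, spanned 3.68 and HNRNPUL1 spanned 0.51. The HNRNPL range mixes arrays of low and full 5′ signal. Its lowest group, liver, was at 3.27 on the low and 5.31 on the full array, and the 8 full tumors averaged 7.82, against 7.97 in cell lines. Among Sm and snRNP genes, SNRPA, the A protein of the U1 snRNP, spanned 1.88 and SNRPF, of the Sm ring, spanned 0.75. SF3B5, a small subunit of SF3B, spanned 2.17 and SF3A1 spanned 0.65. PRPF38B spanned 1.86 and PRPF40B, which resembles a yeast protein of the U1 snRNP, spanned 0.19. For the LSM genes LSM6 had the widest range, 1.36, and LSM1 the narrowest, 0.48, and for the helicases DHX9 had 1.53 and DHX8 had 0.39. RBM47 had the widest range of all 82, 5.36, and RBM20, known for splicing titin in heart, the narrowest, 0.18. Both U2AF genes, U2AF1 and U2AF1L4, spanned about the same, 1.43 and 1.42. RBM20, RBM4B and RBM19 had every group mean under 5, and the other 79 genes had at least 1 group mean above it.

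The clearest contrast was between the normal organs. Splicing factors were higher in lymph node than in kidney and liver: 16 of the 82 genes passed the test (limma, adjusted p under 0.01 over 23836 probe sets) and all 16 were higher, while 0 were lower. Over all probe sets 3.59% were called higher and 4.43% lower, and over genes with 1 symbol 5.20% and 6.70%. The difference was positive for 80 of 82 genes, against 55.5% of genes with 1 symbol, with a median of 0.88 against 0.07 over those genes. At an unadjusted p under 0.05, 46 were higher and 1 lower. No share over all genes was counted at this unadjusted level, here or in the comparisons below. Both lymph nodes exceeded all 4 kidney and liver samples in 54 of 82 genes, where 16.3% of probe sets and 24.3% of genes with 1 symbol did so.

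The hnRNP genes led the count, with 7 of 15 called: HNRNPAB, HNRNPU, HNRNPR, HNRNPM, HNRNPF, HNRNPC and HNRNPA2B1. The chosen probe sets of HNRNPM, HNRNPF and HNRNPA2B1 are of types that may share sequence with other transcripts. HNRNPAB, which also binds DNA at CArG boxes, was 10.42 and 10.23 in lymph nodes, against 8.25 and 8.74 in kidneys and 8.61 and 8.35 in livers. The lymph nodes lay well above both other organs, which overlapped each other, and the difference was 1.84 ± 0.31 (SE, adjusted p = 0.000203, 3.57-fold). HNRNPU, also known as scaffold attachment factor A, was 10.89 and 10.81 in lymph nodes, against 9.11 and 9.30 in kidneys and 9.59 and 9.18 in livers. Its difference was 1.56 ± 0.24 (adjusted p = 0.000102), again without overlap. HNRNPC, which binds uridine tracts, was 10.21 and 10.40 in lymph nodes, against 9.23 and 9.60 in kidneys and 9.10 and 8.72 in livers, a difference of 1.14 ± 0.23 (adjusted p = 0.00127).

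Among SR proteins 2 of 11 were called. SRSF7 was 10.35 and 10.25 in lymph nodes, against 8.81 and 8.24 in kidneys and 8.67 and 8.35 in livers, a difference of 1.78 ± 0.35 (adjusted p = 0.00111, 3.44-fold). SRSF3, which like SRSF7 also links splicing to mRNA export, was 9.42 and 9.50 in lymph nodes, against 7.96 and 8.10 in kidneys and 7.73 and 7.48 in livers, a difference of 1.64 ± 0.34 (adjusted p = 0.00192). The lymph nodes did not overlap the other organs for either gene. SRSF1, singled out after its values were seen, had the largest difference of the 82, 2.69 ± 0.70, but did not pass (adjusted p = 0.012). Lowest first, it was 8.90 and 9.69 in lymph nodes, against 4.93 and 8.09 in kidneys and 6.52 and 6.88 in livers. The kidneys thus lay far apart from each other. SRSF12 went the other way in value, at 3.50 and 3.44 in lymph nodes, against 5.74 and 6.34 in kidneys and 4.18 and 4.19 in livers, and did not pass (-1.64 ± 0.65, adjusted p = 0.116).

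PRPF38B, related to the yeast tri-snRNP protein Prp38, was 8.59 and 8.51 in lymph nodes, against 6.53 and 6.85 in kidneys and 7.20 and 6.89 in livers. All other samples of the series lay below both lymph nodes, the highest tumor being at 7.49, and the difference from kidney and liver was 1.68 ± 0.27 (adjusted p = 0.000122, 3.21-fold). PRPF4B, a kinase of the spliceosome, was 9.07 and 9.36 in lymph nodes, against 8.25 and 8.47 in kidneys and 8.10 and 8.09 in livers, a difference of 0.99 ± 0.20 (adjusted p = 0.00177). RBM26 was 7.75 and 8.07 in lymph nodes, against 5.62 and 6.41 in kidneys and 6.25 and 6.58 in livers, a difference of 1.70 ± 0.37 (adjusted p = 0.00276). U2AF1L4, a paralog of the small U2AF subunit, was 7.40 and 7.45 in lymph nodes and between 5.99 and 6.12 in the 4 kidney and liver samples, and DHX15, the helicase that takes apart the spliceosome after splicing, was 10.55 and 10.98 in lymph nodes and between 9.37 and 9.87 in the others. RBM28 and RBM39 completed the 16. No Sm and snRNP, LSM or SF3A and SF3B gene was called, although all 22 of them were higher in value, with SNRPA closest to the threshold (1.60 ± 0.41, adjusted p = 0.0103).

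These calls changed with the arrays in the fit. Without lymph node 1 the count was 7 and without lymph node 2 it was 5, and on the arrays with full 5′ signal alone it was 6. On low 5′ arrays alone, with 1 array per organ and the spread pooled with the tumors, it was 0, with a median difference of 0.73 and 76 of 82 positive, against 0.97 and 79 of 82 on the full arrays. All 16 called genes kept their direction in both classes of array, which is no separate check, because the same arrays had selected these genes. In a fit of the 6 normal samples alone 8 genes were called without the replicate block and 21 with it, 14 of these 21 being among the 16. This block is at the same time the split of the organ arrays by 5′ class. The 21 included 1 lower gene, SRSF12. Of 19 further probe sets for 12 of the called genes, 18 agreed in sign and 2 were called, the exception in sign being 1 of HNRNPF (-0.13). Agreement in sign included values near 0. The other SRSF7 probe set gave 0.04, against 1.78 for the chosen one, which is of a type that may share sequence with other transcripts. For HNRNPR the lowest of 3 further probe sets gave 0.05, against 1.57.

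Markers of lymphocytes and of proliferation moved with this contrast. The mean of 5 lymphocyte genes was 7.40 and 8.57 in lymph nodes, against 5.43 and 5.68 in kidneys and 5.76 in both livers. For 11 cell cycle genes the mean was 6.92 and 7.27 in lymph nodes, against 5.51 and 5.70 in kidneys and 5.82 and 5.87 in livers. Their part in the difference was not tested. In bulk tissue fewer cells of a type and less RNA per cell cannot be told apart.

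**Figure D2:**
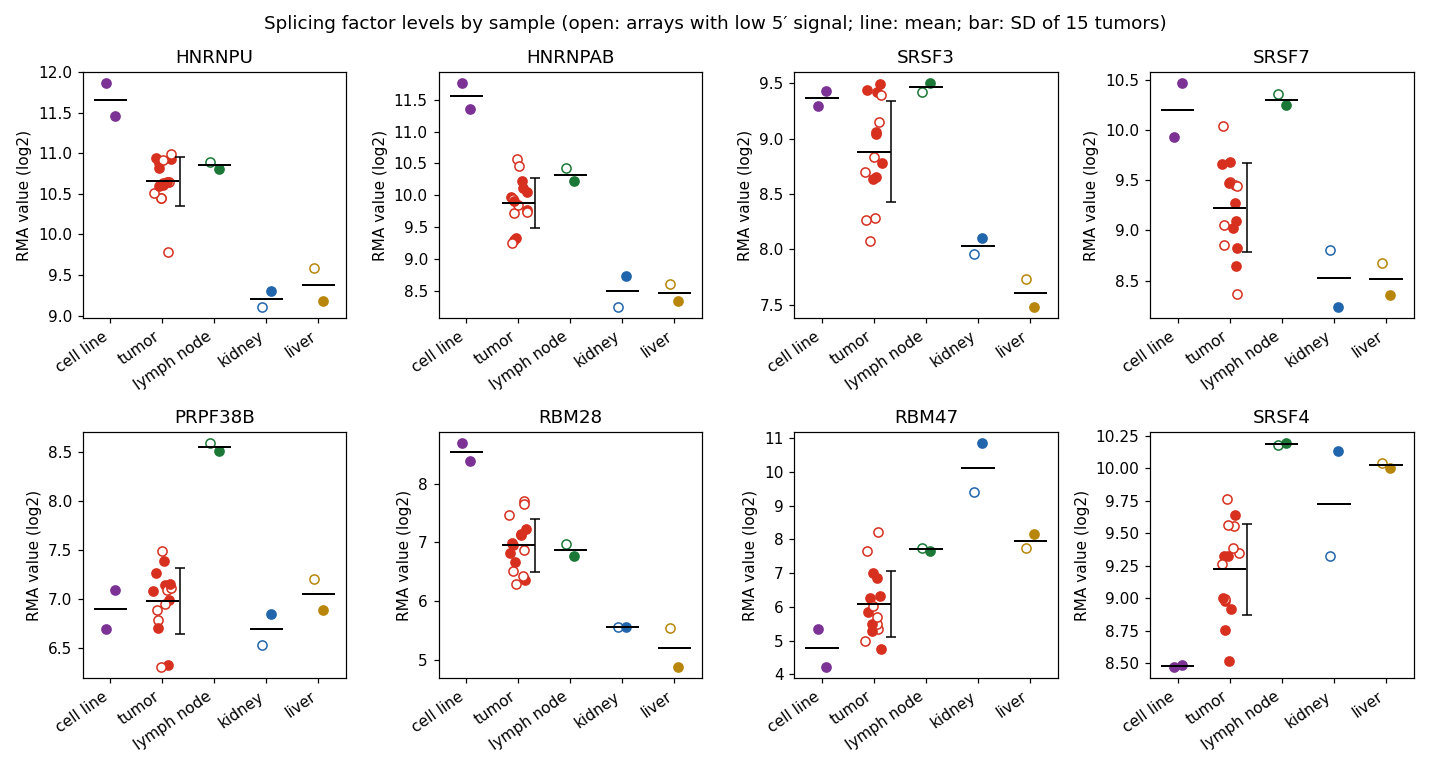
Each panel shows the RMA value (log2) of 1 gene in every sample, by group. Open circles are arrays with low 5′ signal, the horizontal line is the group mean and the bar at the tumors is the SD of 15 tumors. HNRNPU, HNRNPAB and RBM28 were highest in cell lines, PRPF38B was highest in lymph node, RBM47 was highest in kidney and SRSF4 was lowest in cell lines.

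Tumors were then compared with each organ alone. All calls were higher in tumors against liver and lower in tumors against lymph node, and 5 of 6 were higher against kidney. All 3 comparisons used the same 15 tumors. Against liver, 10 of 82 genes were higher and 0 lower (limma, adjusted p under 0.01), where 3.42% of probe sets were called higher and 5.86% lower, and 6.09% and 7.72% of genes with 1 symbol. The median difference was 0.40, against 0.11 over genes with 1 symbol, and at an unadjusted p under 0.05 25 genes were higher and 2 lower. Against kidney, 5 were higher and 1 lower, where 2.0% and 5.26% of probe sets were called, and 3.65% and 7.19% of genes with 1 symbol. Its median difference was 0.29, against 0.07 over those genes, and at the same unadjusted level 17 were higher and 4 lower. The 11 cell cycle genes were all positive, with a median difference of 1.17 from liver and 1.16 from kidney. The 13 hepatocyte genes averaged 5.24 to 5.81 in tumors, against 10.50 and 10.61 in livers, and the 11 macrophage genes 6.95 to 9.38 in tumors, against 8.13 and 8.70 in livers and 5.70 and 5.86 in kidneys. Their part in the differences of splicing factors was not tested.

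Of the 10 genes higher than in liver 6 were hnRNP genes. HNRNPR ranged from 9.10 to 10.17 in tumors with a median of 9.90, against 8.34 and 8.19 in livers and 8.53 and 8.96 in kidneys. No tumor fell to the level of any kidney or liver sample, and the difference was 1.53 ± 0.23 from liver (SE, adjusted p = 4.24e-05, 2.89-fold) and 1.05 ± 0.23 from kidney (adjusted p = 0.0030). HNRNPU ranged from 9.79 to 10.99 in tumors with a median of 10.65, again above all 4 of these organ samples, and differed by 1.27 ± 0.21 from liver (adjusted p = 0.000171) and 1.45 ± 0.21 from kidney (adjusted p = 4.62e-05). HNRNPAB ranged from 9.25 to 10.57 in tumors with a median of 9.91 and differed by 1.41 ± 0.27 from liver (adjusted p = 0.000664) and 1.39 ± 0.27 from kidney (adjusted p = 0.000948). The other hnRNP genes called against liver were HNRNPM, HNRNPA2B1 and HNRNPC, with differences between 0.83 and 0.90.

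RBM28 ranged from 6.30 to 7.71 in tumors with a median of 6.96, against 5.56 in both kidneys and 5.54 and 4.88 in livers. It differed by 1.74 ± 0.30 from liver (adjusted p = 0.000275, 3.34-fold) and 1.39 ± 0.30 from kidney (adjusted p = 0.00317). SRSF3 was the SR protein called against liver, at 8.07 to 9.49 in tumors with a median of 8.83, a difference of 1.27 ± 0.30 (adjusted p = 0.00442). LSM2, of the U6 ring, and DHX15 were also called against liver, with differences of 1.01 and 0.73. RBM26 was called against kidney (1.35 ± 0.32, adjusted p = 0.00611). HNRNPU, HNRNPR, HNRNPAB and RBM28 were the genes called against both organs.

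RBM47 was the gene called lower against kidney. It serves as a cofactor of APOBEC1 in mRNA editing and regulates splicing in epithelia. It was 4.75 to 8.21 in tumors with a median of 5.84, against 9.42 and 10.85 in kidneys, and the groups did not overlap (-4.05 ± 0.66, adjusted p = 0.000179, 16.6-fold lower). Livers were at 7.74 and 8.17 and lymph nodes at 7.75 and 7.67, within the upper part of the tumor range. The 11 kidney epithelium genes averaged 5.41 to 5.86 in tumors, against 7.89 and 8.25 in kidneys, and their part in the RBM47 difference was not tested.

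The organ samples behind these counts were few. Without liver 1 the count of called genes against liver was 6 and without liver 2 it was 1, HNRNPR. Against kidney it was 2 without kidney 1 (HNRNPU and RBM47) and 4 without kidney 2, of which HNRNPAB and HNRNPU were among the 6. On arrays with full 5′ signal alone 9 genes were called against liver, 7 of them among the 10, and 2 against kidney, and on low 5′ arrays alone 0 in both. All called genes kept their direction within both classes of array, but they had been selected on the same arrays, so that this is no separate check. The second HNRNPU probe set gave -0.22 against kidney, opposite to the first, and 0.59 against liver, and 1 of 3 further probe sets of HNRNPR gave -0.03 against liver.

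Against lymph node, 5 of 82 genes were lower in tumors and 0 higher, where 2.91% of probe sets were called lower and 1.33% higher, and 3.43% and 2.52% of genes with 1 symbol. The difference was negative for 74 of 82 genes with a median of -0.44, against -0.01 over genes with 1 symbol, and at an unadjusted p under 0.05 29 were lower and 1 higher. PRPF38B was 6.30 to 7.49 in tumors with a median of 7.08 and fell by 1.57 ± 0.23 (SE, adjusted p = 0.000111, 2.98-fold lower). RBM5, which regulates the splicing of apoptosis genes, was 8.67 to 10.13 in tumors with a median of 9.40, against 10.80 and 10.95 in lymph nodes (-1.48 ± 0.28, adjusted p = 0.00141). RBM14, a paraspeckle protein, was 7.05 to 8.27 in tumors with a median of 7.73, against 8.73 and 8.77 in lymph nodes (-1.19 ± 0.27, adjusted p = 0.00765). U2AF1L4 was 5.56 to 6.76 in tumors with a median of 6.31 (-1.17 ± 0.23, adjusted p = 0.0025), and PRPF4B was 7.91 to 8.68 with a median of 8.23 (-0.94 ± 0.18, adjusted p = 0.00135). No tumor reached either lymph node for any of these 5 genes.

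Among the genes that did not pass, SRSF12 was 3.70 to 6.56 in tumors and 1.34 above lymph node (adjusted p = 0.211), and HNRNPL and HNRNPDL were 0.89 and 0.36 above (adjusted p = 0.898 and 0.891). Without lymph node 1, an array with low 5′ signal, HNRNPL and HNRNPDL turned to -0.63 and -0.37. Without either lymph node the count was 1, PRPF38B in both cases, and it was 1 on the arrays with full 5′ signal, RBM5, and 0 on the low ones. Further probe sets of RBM5, PRPF4B and RBM14, 8 in all, agreed in sign and 2 were called. The lymphocyte genes averaged 5.39 to 6.21 in tumors and the cell cycle genes 5.88 to 8.26, a range that included both lymph nodes at 6.92 and 7.27. Their part was not tested.

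With the organs pooled, few splicing factors were called. Between 15 tumors and all 6 normal samples 2 of 82 genes were lower and 0 higher, where 2.93% of probe sets were called lower and 3.02% higher, and 4.51% and 4.74% of genes with 1 symbol. The median difference was 0.07, against 0.02 over genes with 1 symbol, and at an unadjusted p under 0.05 9 genes were higher and 5 lower. RBM47 averaged 6.08 ± 0.99 in tumors (SD, n = 15) and 7.67 to 10.85 in the normal samples, with tumors 6, 7 and 10 the highest at 7.0, 7.66 and 8.21. Its difference was -2.52 ± 0.50 (SE, adjusted p = 0.00192, 5.72-fold lower). SRSF4 was 8.51 to 9.76 in tumors with a median of 9.33, against 10.18 and 10.19 in lymph nodes, 9.33 and 10.13 in kidneys and 10.04 and 10.002 in livers, a difference of -0.76 ± 0.16 (adjusted p = 0.00378, 1.69-fold lower). Kidney 1 lay within the tumor range and the other 5 normal samples lay above every tumor. The second SRSF4 probe set gave -0.01.

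On the higher side RBM28 missed the threshold (1.07 ± 0.27, adjusted p = 0.0105), and SRSF10 (1.26 ± 0.52, adjusted p = 0.119) and HNRNPL (1.37 ± 0.92, adjusted p = 0.371) did not pass. All 8 Sm and snRNP genes were positive in value, between 0.20 and 0.65, and none was called. Without lymph node 1 the count was 6 and without lymph node 2 it was 5, with RBM28, HNRNPU and HNRNPR added in both. Leaving out kidney 2 or either liver left 1, RBM47. As the difference from the unweighted mean of the 3 organs in the model of 23 samples, 7 genes were called, with RBM28, HNRNPAB, HNRNPU, HNRNPR and RBM5 added. With 1 averaged profile per organ, or within either class of 5′ signal, 0 were called, and with organ as a random block RBM47 alone was.

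**Figure D3:**
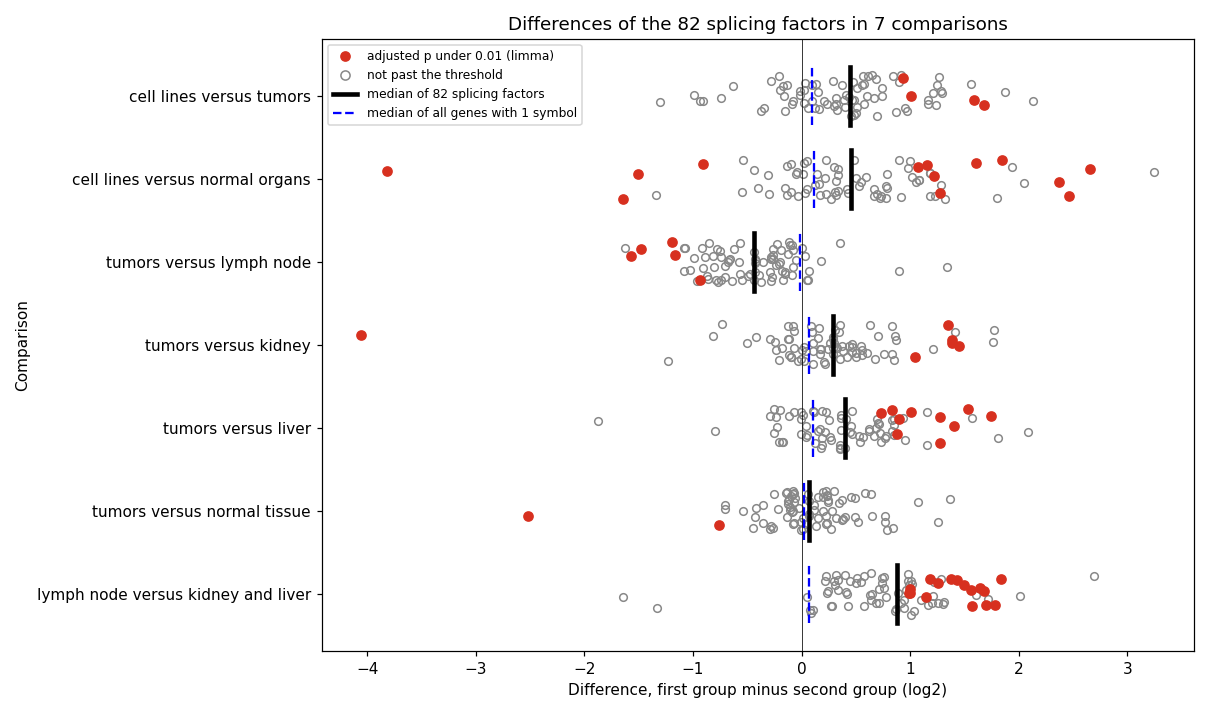
Each point is 1 of 82 splicing factors and its place on the x axis is the log2 difference, first group minus second group. Filled red points passed the limma test, thick black lines are medians of the 82 genes and dashed blue lines are medians of all genes with 1 symbol. The median is 0.88 for lymph node against kidney and liver, -0.44 for tumors against lymph node and 0.07 for tumors against all normal tissue.

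Between cell lines and tumors 4 splicing factors were called, all hnRNP genes except RBM28. The difference was positive for 63 of 82 with a median of 0.45, against 57.1% and a median of 0.10 over genes with 1 symbol. By limma 4 genes were higher and 0 lower, where 3.77% and 2.5% of probe sets were called, and 5.84% and 2.92% of genes with 1 symbol. The share of splicing factors called higher, 4.88%, was thus not above that of named genes. At an unadjusted p under 0.05 24 were higher and 5 lower, counts that were not set against a share over all genes. HNRNPAB was 11.76 and 11.36 in cell lines, above every tumor, and differed by 1.68 ± 0.27 (SE, adjusted p = 0.000327, 3.20-fold). RBM28 was 8.69 and 8.38 in cell lines, also above every tumor (1.59 ± 0.30, adjusted p = 0.00172). HNRNPU was 11.86 and 11.46 in cell lines (1.01 ± 0.21, adjusted p = 0.00348). The second HNRNPU probe set gave 0.30 and was not called. HNRNPM, which regulates exon choice in epithelial to mesenchymal transition, was 10.06 and 10.37, against 8.64 to 9.50 in tumors with a median of 9.37 (0.93 ± 0.20, adjusted p = 0.00341). Its second probe set gave 1.83 and was called.

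All 8 Sm and snRNP genes, with a median of 0.66, and all 5 SF3A and SF3B genes, with a median of 0.60, were higher in value in the cell lines, with none called. PRPF genes had a median of -0.12. The members furthest below tumors did not pass: RBM47 was 5.35 and 4.21 in cell lines (-1.30, adjusted p = 0.199), RBM26 was 6.47 and 6.28, below every tumor (-0.99, adjusted p = 0.0417), and RBM5 was 8.46 and 8.45, also below every tumor (-0.94, adjusted p = 0.0287). The 4 calls changed when an array was left out: without cell line 1 the count was 0, and without cell line 2 it was 1, HNRNPAB. Within the arrays with full 5′ signal 6 genes were called, the 4 and SF3B5 and U2AF1, and with the 5′ index as a covariate 8. Cell cycle genes averaged 8.55 and 8.63 in cell lines, against 5.88 to 8.26 in tumors, and macrophage genes 4.58 and 4.77, against 6.95 to 9.38. Their part in the difference was not tested.

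Against the mean of the 3 organs, 9 genes were higher in cell lines and 4 lower, where 6.48% and 7.25% of probe sets were called, and 10.9% and 8.59% of genes with 1 symbol. The share of splicing factors called higher, 11%, was thus about that of named genes, and the share called lower, 4.88%, was below it. The difference was positive for 63 of 82 genes with a median of 0.45, against 0.11 over genes with 1 symbol. RBM28 (2.65 ± 0.33, SE, adjusted p = 6.31e-06, 6.29-fold), HNRNPAB (2.46 ± 0.29, adjusted p = 2.92e-06, 5.50-fold) and HNRNPU (1.85 ± 0.23, adjusted p = 6.7e-06) were again higher, as were HNRNPR, HNRNPM, the helicase DHX9 and the Sm protein SNRPB, which differed by 1.07 to 1.27. SRSF12 was 6.26 and 7.62 in cell lines, against 3.50 and 3.44 in lymph nodes, 5.74 and 6.34 in kidneys and 4.18 and 4.19 in livers. Cell line 1 overlapped kidney 2, and the difference was 2.37 ± 0.62 (adjusted p = 0.00797). SF3B5 was 10.02 and 9.93 in cell lines, above all organ samples, which reached 9.11 (1.60 ± 0.41, adjusted p = 0.00675).

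The 4 genes lower in cell lines than in the organs were RBM47 (-3.82 ± 0.72, adjusted p = 0.000617, 14.1-fold lower), RBM5 (-1.64 ± 0.30, adjusted p = 0.000511), SRSF4 (-1.50 ± 0.27, adjusted p = 0.000383) and PRPF4B (-0.91 ± 0.19, adjusted p = 0.00157). SRSF4 was 8.47 and 8.48 in cell lines, below every other sample of the series. Its second probe set gave 1.04, of opposite sign. Of 18 further probe sets for 8 of the 13 called genes, 14 agreed in sign, 4 of them called, and the others of opposite sign were 1 of DHX9 (-1.22), 1 of PRPF4B (0.79) and 1 of HNRNPR (-0.09). The count of 13 was 6 without cell line 1 and 6 without cell line 2, and all 13 genes kept their sign on arrays with full 5′ signal. Those 13 genes had been selected with the same arrays, so that the kept sign is no separate check. Over the 7 comparisons between sample groups 25 genes were called at least 1 time and 57 in none. HNRNPAB, HNRNPU and RBM28 were called in 5 each. The second HNRNPU probe set was not called in the same direction in any of these 5. It gave 0.31 for cell lines against the organs, where the chosen one gave 1.85. For lymph node against kidney and liver it gave 0.55, where the chosen one gave 1.56. The comparisons share samples, so that calls of 1 gene in several of them are not independent.

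Among the 15 tumors splicing factors varied about as much as other named genes, with a median SD of 0.43, against 0.42 over genes with 1 symbol and 0.26 over all probe sets. These medians were not matched for level, and the splicing factors were the brighter set. The steadiest were RBM20 (SD 0.18), RBM4B (0.21) and DHX38 (0.21), the last a helicase of splicing, which was at 7.28 to 8.05 and so not among the dim genes. The most variable were HNRNPL (SD 2.13), HNRNPH2 (1.05) and LSM1 (0.997). LSM1 had 2 tumors apart from the rest. It was 10.63 in tumor 3 and 5.79 in tumor 13, while the other 13 tumors lay between 6.88 and 7.62. Both tumors had full 5′ signal.

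HNRNPL and HNRNPH2 instead followed the 5′ signal of the array. Between the 7 tumors with low and the 8 with full 5′ signal 5 of 82 genes were lower and 0 higher, where 2.64% of probe sets were called lower and 0.541% higher, and 3.03% and 0.810% of genes with 1 symbol. HNRNPL was 3.72 to 4.61 in the low tumors with a median of 4.02, against 6.61 to 9.68 in the full ones with a median of 7.13, and its difference was -3.71 ± 0.47 (SE, adjusted p = 0.000172). HNRNPH2, which binds runs of G, was 4.78 to 5.72 in the low tumors, against 6.70 to 7.59 in the full ones (-1.95 ± 0.16, adjusted p = 3.13e-06). Neither gene's classes overlapped. HNRNPDL (-1.35 ± 0.21, adjusted p = 0.000926), HNRNPUL2 (-1.04 ± 0.16, adjusted p = 0.00101) and RBM23, a relative of RBM39, (-0.63 ± 0.12, adjusted p = 0.00352) were also lower.

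The organs showed the same split for HNRNPL, which was 3.68, 3.48 and 3.27 in lymph node 1, kidney 1 and liver 1, the arrays with low 5′ signal, against 6.72, 5.88 and 5.31 in lymph node 2, kidney 2 and liver 2. SRSF10, which represses splicing in its dephosphorylated form, was 6.95, 4.53 and 4.57 in those low arrays, against 9.27, 7.98 and 7.30 in the full ones, and its differences between tumors and organs had large errors. HNRNPU showed no such split, at 9.79 to 10.99 in the low tumors with a median of 10.64, against 10.44 to 10.94 in the full ones with a median of 10.74. On the higher side SF3B5 (0.80, adjusted p = 0.026), PRPF3 (0.76, adjusted p = 0.145) and SRSF12 (0.65, adjusted p = 0.374) did not pass. With the second probe set of each gene that has several, 12 genes were called lower, among them SRSF2, SRSF5, HNRNPR, HNRNPC and HNRNPA2B1. No share over all genes is given for second probe sets. The 5′ class of a tumor cannot be told apart from other differences between the same tumors.

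**Figure D4:**
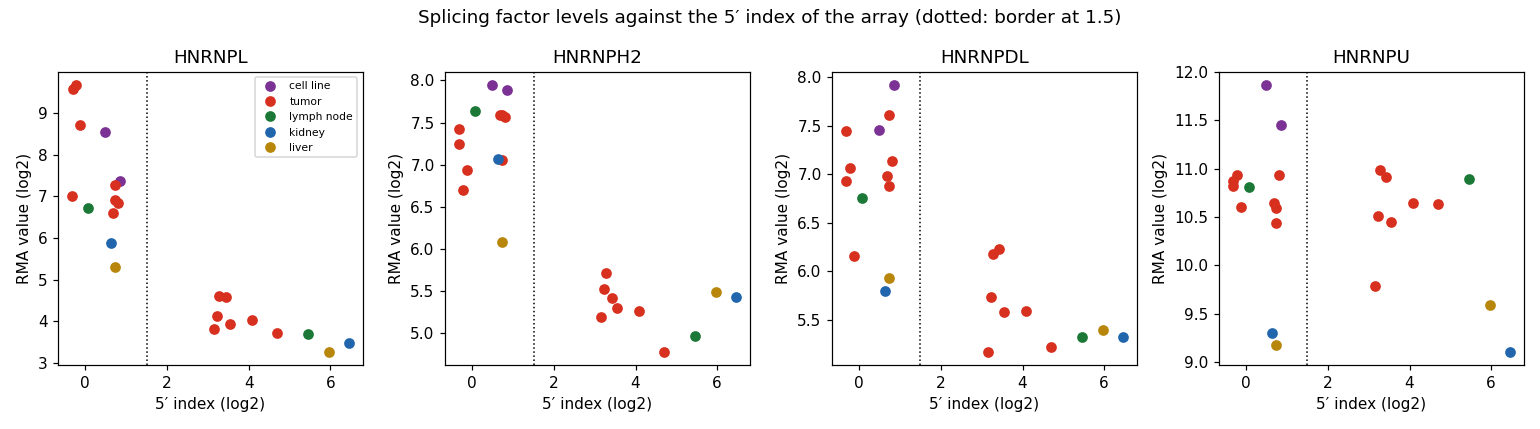
Each panel plots the RMA value (log2) of 1 hnRNP gene against the 5′ index of the array (log2), with points coloured by group and a dotted line at the border of 1.5. HNRNPL, HNRNPH2 and HNRNPDL have lower means to the right of the border in every group present on both sides. HNRNPU does not, and its kidney and liver samples are low on both sides.

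Other genes of the spliceosome, outside the symbol rule, were examined as a list of 50. It held 6 higher and 0 lower calls in lymph node against kidney and liver, where 5.20% and 6.70% of genes with 1 symbol were called, with a median difference of 0.92 and 47 of 50 positive. DDX39A, a helicase of mRNA export, was 9.29 and 10.01 in lymph nodes and differed by 2.85 ± 0.64 (SE, adjusted p = 0.00367). PNN, or pinin, differed by 1.70 ± 0.36 (adjusted p = 0.00252) and RNPS1, which joins the exon junction complex, by 1.53 ± 0.29 (adjusted p = 0.000963). In cell lines against tumors 8 of the 50 were higher and 1 lower, where 5.84% and 2.92% of genes with 1 symbol were called. GEMIN6, of the SMN complex that loads Sm rings, was 8.54 and 8.82 in cell lines, against 5.25 to 7.97 in tumors with a median of 6.82 (2.13 ± 0.47, adjusted p = 0.00505). SNRNP35, of the minor spliceosome, was 1.94 higher (adjusted p = 0.00443), CWC22 1.69 (adjusted p = 0.00107) and MAGOHB 1.63 (adjusted p = 0.00801), while SRRM2 was 8.26 and 8.54 in cell lines, below every tumor (-1.38 ± 0.25, adjusted p = 0.00108). Between tumors and all normal samples 0 of 50 passed.

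Among 28 other splicing regulators 2 were higher and 2 lower in tumors than in normal tissue, with a median difference of 0.03 and 16 of 28 positive, where 4.74% and 4.51% of genes with 1 symbol were called. RBFOX2, which regulates exon choice in mesenchymal and other cells, was 8.75 to 10.69 in tumors with a median of 10.08, against 6.39 and 5.72 in lymph nodes, 8.08 and 7.39 in kidneys and 8.32 and 8.73 in livers. The lowest tumor lay next to the higher liver sample. The RBFOX2 difference from all normal samples was 2.44 ± 0.37 (adjusted p = 0.000128), and it passed against lymph node and kidney but not against liver (1.36, adjusted p = 0.0251). RBFOX2 was also lower in lymph node than in kidney and liver (-2.07 ± 0.46, adjusted p = 0.00357). ELAVL1, or HuR, was 0.98 higher in tumors (adjusted p = 0.00261) and did not pass against lymph node alone (0.34, adjusted p = 0.634). CLK1 and CLK4, kinases that phosphorylate SR proteins, fell by 1.16 ± 0.21 (adjusted p = 0.00081) and 1.21 ± 0.30 (adjusted p = 0.00984). CLK1 was 7.58 to 9.16 in tumors with a median of 8.59, against 10.25 and 10.22 in lymph nodes, 9.45 and 9.25 in kidneys and 9.27 and 9.29 in livers. Taken organ by organ, both kinases were called against lymph node (adjusted p = 0.000191 for CLK1 and 0.00169 for CLK4) and did not pass against kidney (0.0399 and 0.329) or liver (0.0541 and 0.266).

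In cell lines against tumors 3 of the 28 were lower and 0 higher, where 2.92% and 5.84% of genes with 1 symbol were called. EWSR1 was 6.41 and 4.59 in cell lines, against 7.65 to 9.75 in tumors with a median of 8.99 (-3.31 ± 0.51, adjusted p = 0.000253), and TIA1, a U1 recruiting and stress granule protein, was 5.39 and 3.78, against 6.68 to 8.35 with a median of 7.76 (-3.01 ± 0.42, adjusted p = 9.84e-05). MBNL1, of the muscleblind family, was 9.10 and 9.45 in cell lines, against 10.31 to 11.64 in tumors (-1.83 ± 0.25, adjusted p = 7.53e-05). Neither cell line overlapped the tumors for any of the 3. In lymph node against kidney and liver 3 of the 28 were higher and 2 lower, where 5.20% and 6.70% of genes were called. MBNL1 was higher (1.99 ± 0.29, adjusted p = 3.49e-05), as were ILF2 (1.77, adjusted p = 0.00054) and FUBP1 (1.61, adjusted p = 0.00193), while ESRP2, an epithelial splicing regulator, was lower (-2.004 ± 0.231, adjusted p = 1.91e-06).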

How the data were processed

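Total RNA of 23 canine samples was hybridized to Affymetrix canine genome arrays at 1 facility as a single batch, per the study's methods. The deposited values are log2 expression values that the authors made by RMA (background correction, quantile normalization within the species and probe summarization), with versions not given in the sources used here. They ran from 2.52 to 14.17 over 23913 probe sets with 0 missing. Differences in total RNA per cell are lost in quantile normalization, and differences between dim values are compressed. Arrays give no read depth, and their number limits the precision.

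After 77 control probe sets were set aside, 23836 were tested. The platform annotation gave 1 symbol for 10549 of them, several for 138 and none for 13149. For 35 of the 82 splicing factors several probe sets existed, 145 in all, and 13 of the 82 chosen probe sets are of the types that may share sequence with other transcripts. Among the genes called between sample groups, those of HNRNPM, HNRNPF, HNRNPA2B1, RBM5, SF3B5 and SRSF7 are of these types.

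Groups were compared by two-sided limma tests (version 3.58.1, R 4.3.3, functions lmFit and eBayes), with p-values adjusted by Benjamini-Hochberg over 23836 probe sets and called under 0.01. Tumors versus all normal tissue was a fit of 2 groups, and the tumors of low versus full 5′ signal were compared among 15 tumors. All other comparisons were contrasts of 1 model of 23 samples in 5 groups. The fits were tested on simulated data with independent errors for each array. The simulation held neither a 5′ class nor a correlation between same-numbered organ samples, so that it cannot say how the fits behave under them. Whether replicate numbers pair the organ samples was examined through the deviations from the organ means. These correlated with r = 0.607 (kidney and liver), 0.596 (lymph node and kidney) and 0.530 (lymph node and liver) over 23836 probe sets. Replicate 1 of each organ is also the array with low 5′ signal, so that a pairing by number and the 5′ class cannot be told apart. The main fits did not pair the samples, and the number served as a block only in an alternative fit. The paper describes its canine normal samples as biological replicates, neither pooled nor repeat assays of a single sample, and names 2 canine cell lines. The labels do not say whether same-numbered samples of different organs share a dog, or which cell line sample is which line. The p-values reflect only the spread among these samples, part of which may be technical.

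Genes were named by rule: up to 8 per direction with the largest called difference (tumors versus normal tissue, cell lines versus tumors) or 5 (other comparisons), up to 3 that missed where none passed, the widest and narrowest member of each family, the 3 most and least variable over tumors, members whose probe sets disagreed, and up to 4 per direction from each of the other lists. Other genes were named after their values were seen. The members and lists were chosen with earlier results of these data known. Alternatives were the threshold 0.05, the features adjusted over, dim probe sets (highest group mean under 5) left out, median centring, an intensity trend, the second probe set, the 5′ index as covariate, each 5′ class alone, and leaving out each cell line or organ sample.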

Additional observations from a re-analysis of the deposited data

Results flagged for a closer look

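SRSF4 in the 6 normal samples had 1 sample far from the others: kidney 1 was at 9.33 and the other 5 lay between 10.002 and 10.19, so that the gap took up 0.78 of the whole range. Chance alone gives about 1 such case in 20 groups, and 21 groups were examined. Kidney 1 is also the array with the highest 5′ index, 6.45, and the part of the 5′ signal was not tested.

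The tumor difference from lymph node and that from the mean of kidney and liver differed for 16 splicing factors (limma, adjusted p under 0.01). The tumors cancel in this difference, so that it is the lymph node versus kidney and liver contrast of the report with the same 16 genes, where 3.59% of probe sets were called higher and 4.43% lower, and it adds no result about tumors.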

How the results depend on the processing

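At an adjusted p under 0.05 (limma throughout) the counts of called splicing factors were 7 for tumors versus normal tissue (2 at 0.01), 13 for tumors versus lymph node (5), 18 for cell lines versus tumors (4), 28 for cell lines versus normal organs (13), 32 for lymph node versus kidney and liver (16) and 9 for tumors with low versus full 5′ signal (5). With the second probe set of each gene they were 1 for tumors versus normal tissue, 6 for tumors versus liver (10 in the reported fit), 7 for cell lines versus tumors, 8 for lymph node versus kidney and liver and 12 for low versus full 5′ signal. On low 5′ arrays alone they were 0 for all 5 comparisons that could be made, where a lone organ sample is assumed to vary like the other groups. On full 5′ arrays alone they were 0 for tumors versus normal tissue, 2 for tumors versus kidney (6), 1 for tumors versus lymph node and 6 for lymph node versus kidney and liver. With the 5′ index as covariate 8 were called in cell lines versus tumors. Tumors versus normal tissue gave 1 with organ as a random block, 0 with 1 averaged profile per organ and 7 against the mean of 3 organs in the model of 23 samples. Leaving out 1 sample at a time gave 1 to 6 for tumors versus normal tissue, 2 to 4 versus kidney, 1 to 6 versus liver, 1 in both cases versus lymph node, 0 to 1 for cell lines versus tumors, 6 to 13 for cell lines versus normal organs and 5 to 17 for lymph node versus kidney and liver. In the 6 normal samples the last comparison gave 8 without and 21 with the replicate block. The block is the replicate number of the organ samples, which is also their 5′ class, and the labels give no pairing for any comparison. No share over all genes is given beside the counts of this section, and they are not read as a result about splicing factors.

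Single results turned sign in 5 cases: with the second probe set HNRNPU in tumors versus kidney (-0.216), SRSF4 in tumors versus liver (0.353) and SRSF4 in cell lines versus normal organs (1.045), and without lymph node 1 HNRNPL (-0.625) and HNRNPDL (-0.365) in tumors versus lymph node, which were 2.414 and 1.074 without lymph node 2. The cause was not tested. Over 58 differences of named genes, 41 of them called, the alternatives left 581 values on the same side of the threshold, while 116 lost and 11 gained the call without a change of direction. Adjustment over 1 probe set per gene, leaving out dim probe sets, median centring and an intensity trend moved no count of calls by more than 1.5 times.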
